A study of Mus musculus with 49 samples.

Results

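Sptlc3, Arxes1, Arxes2, Clstn3, Ephx2, Chrna2 and Mbnl3 are 7 of the 22869 gene symbols quantified from messenger RNA of white adipose tissue in the inbred mice 129S1/SvImJ and C57BL/6. They were chosen for large rises in epididymal fat of both strains on a diet with rosiglitazone, so their values in that experiment are given as a description, without a test, and every test of these 7 genes rests on other libraries. Each gene had 1 transcript row in all 5 deposited tables. The drug mice ate a low fat diet with 36 mg rosiglitazone per kg of diet in their last 2 weeks, at 16 to 18 weeks of age, after 10 weeks on that diet without drug. Their controls ate the drug-free low fat diet throughout, and each strain and diet had 4 libraries. The labels give the drug libraries another experiment number than their controls, so any difference in preparation and the drug cannot be told apart. The drug-free groups were epididymal fat (eWAT, from the visceral cavity) on standard chow (5 libraries per strain), eWAT after 12 weeks of low fat diet (4 libraries of 129S1/SvImJ and 5 of C57BL/6), and inguinal fat (iWAT, from under the skin) after the same 12 weeks (4 libraries per strain). Neither the chow nor the 12-week labels state an age, and 5 F1 libraries and 1 nascent RNA sample were not analysed here.

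Rosiglitazone is a thiazolidinedione that binds and activates PPARG, the nuclear receptor that drives adipocyte differentiation and lipid storage. PPARG acts as a heterodimer with RXR and binds direct repeats of the hexamer AGGTCA with 1 base between them, called DR1 elements, often far from the genes it controls. In fat, its ligands raise genes of lipid uptake, droplet coating and fatty acid oxidation, and in some mouse strains genes of thermogenic adipocytes. The 7 genes belong to unlike families. Sptlc3 encodes a subunit of serine palmitoyltransferase, which begins sphingolipid synthesis. Arxes1 and Arxes2 arose by retrotransposition from the signal peptidase subunit gene Spcs3 and lie on the X chromosome. Ephx2 encodes soluble epoxide hydrolase, which turns fatty acid epoxides into diols. Chrna2 encodes a subunit of the nicotinic acetylcholine receptor, Clstn3 a calsyntenin, a membrane protein best known from synapses, and Mbnl3 an RNA-binding protein of the muscleblind family that regulates splicing.

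The windows around the annotated starts are shown because 2 of the genes share theirs. RefSeq promoter windows on GRCm38.p6, 250 bases before to 50 bases from the start, were found for 5 of the 7 genes, and Ephx2 and Chrna2 had none. The windows of Arxes1 (chrX:136033117-136033416, plus strand) and Arxes2 (chrX:135993570-135993869, plus strand) differed at 0 of 300 bases, so 1 sequence stands for both. Those of Sptlc3 (chr2:139493663-139493962, plus strand) and Mbnl3 (chrX:51205941-51206240, minus strand) are given beside it, with the first base of the annotated transcript in capitals.
Arxes1 and Arxes2: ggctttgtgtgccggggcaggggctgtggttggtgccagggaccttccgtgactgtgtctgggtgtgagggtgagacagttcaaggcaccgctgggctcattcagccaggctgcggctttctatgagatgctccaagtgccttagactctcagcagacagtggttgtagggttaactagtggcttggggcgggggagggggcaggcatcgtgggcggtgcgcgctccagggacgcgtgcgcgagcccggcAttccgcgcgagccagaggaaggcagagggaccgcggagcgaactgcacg
Sptlc3: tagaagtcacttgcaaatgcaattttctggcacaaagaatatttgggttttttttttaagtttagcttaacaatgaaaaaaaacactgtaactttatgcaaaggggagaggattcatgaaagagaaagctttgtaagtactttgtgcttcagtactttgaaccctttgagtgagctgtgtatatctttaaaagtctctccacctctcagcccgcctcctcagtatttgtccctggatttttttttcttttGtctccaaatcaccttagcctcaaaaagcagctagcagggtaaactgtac
Mbnl3: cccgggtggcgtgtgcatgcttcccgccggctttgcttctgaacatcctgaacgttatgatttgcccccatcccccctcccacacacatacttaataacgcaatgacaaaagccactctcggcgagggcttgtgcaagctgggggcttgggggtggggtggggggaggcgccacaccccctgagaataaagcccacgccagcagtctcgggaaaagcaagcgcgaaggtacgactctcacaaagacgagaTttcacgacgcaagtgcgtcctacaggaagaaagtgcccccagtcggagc
The Arxes window held 65% G and C, that of Mbnl3 59% and that of Sptlc3 37.3%, beside a median of 52.7% over all windows. None of the 6 windows of the 5 genes, 2 of them at separate starts of Clstn3, held the hexamer AGGTCA on either strand, which 16.3% of 32851 windows of the same length held. None held a DR1 element with at most 2 mismatches on either strand either, and 3.86% of all windows did. A DR1 element contains 2 hexamers, so both searches overlap, and an absent match says only that these letters are not in this window.

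Position and sequence bear on how the genes could be measured. Arxes2 and Arxes1 are direct neighbours on the X chromosome, and Ephx2 and Chrna2 are direct neighbours on chromosome 14. No annotated gene overlapped any of the 7. The Arxes1 transcript of 1580 bases and the Arxes2 transcript of 1532 bases (GENCODE M21) shared 38.9% of the 50-base windows of Arxes1, all within bases 5 to 698 of it. From base 699 on, no such window was shared. How reads that match both genes were placed is not stated by the labels, so their values are not fully separate measurements. Spcs3 shared 0 such windows with either.

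The deposited values are whole numbers, already normalized by the authors, with a floor of 1, and are given below as normalized values. No source states a division by transcript length, so levels are compared between libraries and not between genes. The depth of each library is unknown, since within an experiment all libraries share nearly the same total, between 5537632 and 7526303 over the 43 libraries. In iWAT of C57BL/6 the 4 libraries had a coarser scale than the remaining 39, with 467 to 679 distinct values against 1293 to 1865, and with 32.1% to 37.7% of transcripts at the floor against 15.2% to 27.2%. Adipoq and Plin1, which define adipocytes, were high in every library, and Msln and Upk3b, which mark the mesothelium covering visceral fat, lay between 24 and 1079 in eWAT and at 1 to 5 in iWAT. On chow, C57BL/6 libraries 2 and 5 and 129S1/SvImJ libraries 1 and 2 carried the epithelial marker Epcam at 425 to 1189, against 1 to 6 in the other 6. Over the list of 6 mammary and skin epithelium markers, which includes Epcam, the summed values were 1397 and 3851 in those 129S1/SvImJ libraries and 922 and 919 in those C57BL/6 libraries, against 20 to 92 in the other 6. The C57BL/6 sums were mostly Epcam and Krt18, which reached 461 and 487. There Krt14 reached only 17, Krt5 only 3, and Csn3 and Wap only 2, so the list as a whole did not rise in C57BL/6. The 129S1/SvImJ chow library 2 also held the epididymal secretory genes Lcn5 at 58238 and Crisp1 at 39892, and its Adipoq value was 2402 against 11641 to 20038 in the other chow libraries. Crisp1 averaged 14780 ± 20320 over the 5 129S1/SvImJ chow libraries (SD), more than library 2 alone could give. At least 1 other library of that group thus also held Crisp1 at a high value. In iWAT, 129S1/SvImJ libraries 1 and 4 and C57BL/6 library 4 carried the B cell gene Cd79b at 289 to 1021, against 1 to 22 in the other 5. Epcam and Cd79b were picked from their lists after their values were seen. In such bulk tissue, fewer cells of a type and less RNA per cell cannot be told apart. Whether libraries of a group come from separate animals is not stated in the labels, so p-values measure only the spread between these libraries.

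With rosiglitazone, all 7 genes had higher group means in both strains, and most groups did not overlap. In 129S1/SvImJ the lowest drug library lay above the highest control library for 6 of the 7 genes, all but Clstn3, where 5.17% of all genes did. In C57BL/6 it did so for 6 of 7, all but Chrna2, where 3.5% of all genes did. In both strains at once it did so for 5 of 7, where 1.08% of all genes did. The genes were chosen on this contrast, so nothing is read from these counts.

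Sptlc3 was near the floor without the drug and clearly above it with the drug. It stood at 30, 31, 33 and 38 in 129S1/SvImJ rosiglitazone libraries, against 3, 2, 1 and 2 in 129S1/SvImJ control libraries. In C57BL/6 it stood at 115, 59, 70 and 39 with rosiglitazone, against 4, 1, 4 and 4 on control diet. Every drug library of either strain lay above every control library of both. The log2 difference on the value + 1 scale was 3.54 ± 0.22 in 129S1/SvImJ and 4.07 ± 0.46 in C57BL/6 (SE, n = 4 against 4). Because the control values lie next to the floor, these differences depend on the added constant, and with 10 added they were 1.84 in 129S1/SvImJ and 2.53 in C57BL/6.

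The partner subunits of Sptlc3 did not pass the test in either strain. Sptlc1, the subunit that every form of the enzyme needs, averaged 250.5 ± 22.4 with rosiglitazone and 238.5 ± 9.47 on control diet in 129S1/SvImJ (SD, n = 4 each), a log2 difference of 0.07 (95% interval -0.14 to 0.28). In C57BL/6 its difference was 0.12 (-0.09 to 0.33). Sptlc2, the other catalytic subunit, differed by 0.05 (-0.20 to 0.30) in 129S1/SvImJ and by -0.13 (-0.38 to 0.12) in C57BL/6. In a list of 16 genes for serine palmitoyltransferase and ceramide synthesis, 8 were found by symbol. Sptssa, Sptssb and the ceramide synthase genes Cers1 to Cers6 were not found under these symbols and were not examined. Of the 8 genes found, 1 rose and 0 fell in 129S1/SvImJ, and 0 rose and 0 fell in C57BL/6 by limma, where 1 had an unadjusted p under 0.05. The gene that rose was Ormdl3, which restrains the enzyme, at 1562 ± 244 with rosiglitazone and 1105 ± 90.3 on control diet (log2 difference 0.49, limma, adjusted p = 0.0109). Over all genes, by limma at an adjusted p under 0.05, 5.51% were called in 129S1/SvImJ (2.96% higher and 2.56% lower) and 2.43% in C57BL/6 (1.53% higher and 0.901% lower). An unadjusted p under 0.05 by limma was seen for 3962 of all 22869 genes in 129S1/SvImJ and for 3170 in C57BL/6.

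Arxes1 and Arxes2 were both higher with the drug in both strains. Arxes1 stood at 123, 112, 121 and 148 in 129S1/SvImJ rosiglitazone libraries, against 40, 36, 33 and 33 in 129S1/SvImJ control libraries. In C57BL/6 Arxes1 stood at 189, 110, 144 and 185 with rosiglitazone, against 48, 31, 44 and 43 on control diet. The group means of Arxes1 were 3.55 times higher with the drug in 129S1/SvImJ and 3.78 times higher in C57BL/6, without overlap in either strain. Arxes2 stood at 1025, 1100, 886 and 1041 in 129S1/SvImJ rosiglitazone libraries, against 312, 416, 323 and 362 in control libraries. In C57BL/6 Arxes2 stood at 901, 563, 831 and 899 with rosiglitazone, against 414, 298, 305 and 329 on control diet. The group means of Arxes2 were 2.87 times higher with the drug in 129S1/SvImJ and 2.37 times higher in C57BL/6, and the lowest C57BL/6 drug library, at 563, was the nearest to its controls.

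Spcs3, the parent gene of both, averaged 163 ± 7.12 with rosiglitazone and 167 ± 16.2 on control diet in 129S1/SvImJ, a log2 difference of -0.03 (95% interval -0.29 to 0.22). In C57BL/6 the Spcs3 difference was 0.06 (-0.20 to 0.32). Of the 5 signal peptidase genes, 0 rose and 0 fell in either strain at an adjusted p under 0.05 by limma, and an unadjusted p under 0.05 was seen for 1 in 129S1/SvImJ and 0 in C57BL/6.

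**Figure D1:**
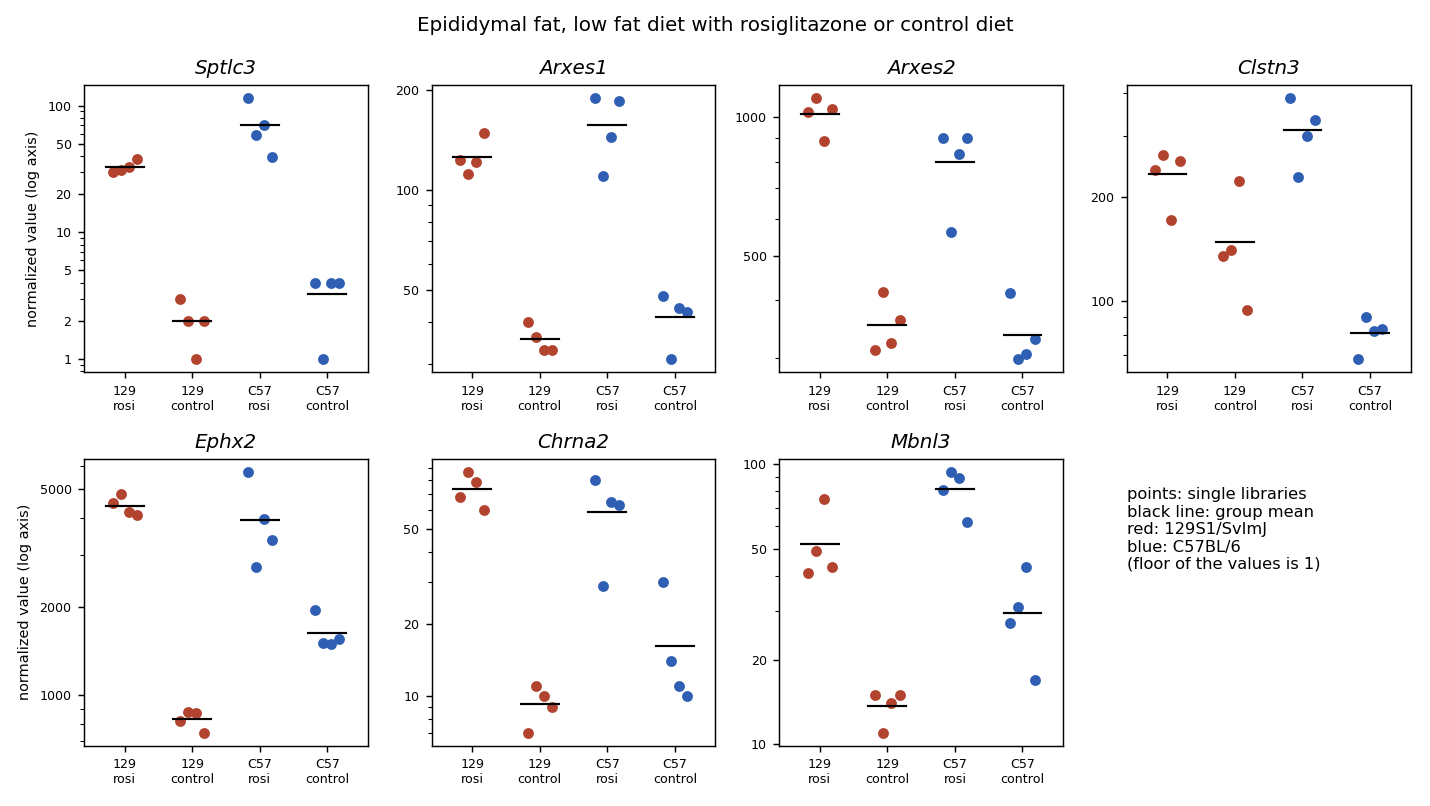
Normalized value (log axis) of each gene in eWAT on low fat diet, 1 point per library, in 4 groups: 129S1/SvImJ with rosiglitazone, 129S1/SvImJ control, C57BL/6 with rosiglitazone and C57BL/6 control. Black lines are group means. Drug and control points overlap for Clstn3 in 129S1/SvImJ and for Chrna2 in C57BL/6 and are apart in the other 12 pairs of groups.

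Ephx2 was higher with the drug in both strains, without overlap. It stood at 4494, 4811, 4187 and 4102 in 129S1/SvImJ rosiglitazone libraries, against 819, 879, 873 and 747 in control libraries. C57BL/6 libraries held 5728, 2729, 3953 and 3361 with rosiglitazone, against 1941, 1509, 1491 and 1557 on control diet. The mean was 5.30 times higher with the drug in 129S1/SvImJ and 2.43 times higher in C57BL/6. The drug groups of the strains overlapped, while the control groups did not: the highest 129S1/SvImJ control, 879, lay below the lowest C57BL/6 control, 1491. Ephx1, the microsomal epoxide hydrolase, averaged 441 ± 46.2 with rosiglitazone and 439 ± 159 on control diet in 129S1/SvImJ, a log2 difference of 0.07 (-0.36 to 0.49). In C57BL/6 the Ephx1 difference was -0.21 (-0.63 to 0.22). Of 7 epoxide hydrolases and epoxide-forming P450s other than Ephx2, 0 rose and 0 fell in either strain by limma, and an unadjusted p under 0.05 was seen for 2 in 129S1/SvImJ and 0 in C57BL/6. Of these, Ephx3, Ephx4, Cyp2c44 and Cyp2c29 averaged between 1.25 and 8 with the drug, near the floor.

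Chrna2, next to Ephx2 on chromosome 14, showed the same order of strains. It stood at 68, 87, 79 and 60 in 129S1/SvImJ rosiglitazone libraries, against 7, 11, 10 and 9 in control libraries. C57BL/6 libraries held 80, 29, 65 and 63 with rosiglitazone, against 30, 14, 11 and 10 on control diet. C57BL/6 drug library 2, at 29, lay below C57BL/6 control library 1, at 30, and the other libraries were apart. The log2 difference was 2.86 ± 0.17 in 129S1/SvImJ and 1.85 ± 0.46 in C57BL/6 (SE, n = 4 against 4). With 10 added in place of 1 it was 2.11 in 129S1/SvImJ and 1.39 in C57BL/6. Of 15 other nicotinic receptor subunits, 1 rose and 0 fell in 129S1/SvImJ, and 0 rose and 0 fell in C57BL/6 by limma, where 0 had an unadjusted p under 0.05. That gene was Chrnb2, a beta subunit that can pair with alpha subunits, at 21.5 ± 3.87 with rosiglitazone and 9.25 ± 3.59 on control diet in 129S1/SvImJ (log2 difference 1.18, limma, adjusted p = 0.0358). In C57BL/6 Chrnb2 averaged 11.5 ± 4.65 with rosiglitazone and 10 ± 4.08 on control diet, a log2 difference of 0.19 (-0.50 to 0.87). Most other subunits averaged near the floor with the drug, such as Chrna9 at 1.25 in each strain, where the test could hardly call a change.

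Clstn3 had the smaller rise in 129S1/SvImJ and the larger in C57BL/6. It stood at 239, 265, 172 and 255 in 129S1/SvImJ rosiglitazone libraries, against 135, 141, 223 and 94 in control libraries. In C57BL/6 it stood at 387, 228, 300 and 335 with rosiglitazone, against 68, 90, 82 and 83 on control diet. In 129S1/SvImJ control library 3, at 223, lay above drug library 3, at 172. The log2 difference was 0.70 ± 0.29 in 129S1/SvImJ and 1.92 ± 0.18 in C57BL/6. RefSeq gives Clstn3b as a synonym of the gene, a mouse fat cell product made from its downstream part, and 1 row cannot tell the products apart.

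The other calsyntenins went opposite ways in 129S1/SvImJ. Clstn1 fell to 391 ± 31.0 with rosiglitazone, against 627.5 ± 50.7 on control diet (log2 difference -0.68, limma, adjusted p = 0.000282), and Clstn2 rose to 80.2 ± 22.7, against 30.8 ± 4.11 (1.32, adjusted p = 0.00179). In C57BL/6 the differences were -0.26 for Clstn1 (-0.48 to -0.04, adjusted p = 0.244) and 0.55 for Clstn2 (0.03 to 1.06, adjusted p = 0.315) by limma, and neither passed the test. Whether these effects differed between the strains was not tested.

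Mbnl3 stood at 41, 49, 75 and 43 in 129S1/SvImJ rosiglitazone libraries, against 15, 11, 14 and 15 in control libraries. C57BL/6 libraries held 81, 94, 89 and 62 with rosiglitazone, against 27, 31, 43 and 17 on control diet. No drug library overlapped the controls of its own strain, but 129S1/SvImJ drug libraries at 41 and 43 lay at the level of the highest C57BL/6 control. The log2 difference was 1.81 ± 0.22 in 129S1/SvImJ and 1.49 ± 0.30 in C57BL/6, and with 10 added it was 1.36 in 129S1/SvImJ and 1.24 in C57BL/6. Its relatives Mbnl1 and Mbnl2 did not pass the test in either strain. Mbnl1 averaged 1596 ± 184 with rosiglitazone and 1992 ± 260 on control diet in 129S1/SvImJ (log2 difference -0.32, interval -0.54 to -0.10, limma, adjusted p = 0.087). In C57BL/6 its difference was -0.20 (-0.42 to 0.02). Mbnl2 differed by -0.06 (-0.26 to 0.13) in 129S1/SvImJ and by -0.09 (-0.28 to 0.10) in C57BL/6. Of the 5 muscleblind and related splicing regulators, 0 rose and 1 fell in 129S1/SvImJ and 0 rose and 0 fell in C57BL/6 by limma, where 0 had an unadjusted p under 0.05. The gene that fell was Rbfox2, at 388 ± 56.2 with rosiglitazone and 485 ± 31.5 on control diet (log2 difference -0.33, limma, adjusted p = 0.0491).

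The 7 genes can be set beside a list of 30 textbook genes that respond to PPARG agonists. Of these, 19 rose and 1 fell in 129S1/SvImJ, with a median log2 difference of 0.87 against -0.005 over all genes. In C57BL/6, 15 rose and 0 fell, with a median of 0.58 against 0 over all genes. Elovl3, a fatty acid elongase of thermogenic fat, rose by 4.81 in 129S1/SvImJ (limma, adjusted p = 5.35e-07). Gpd1, which makes glycerol 3-phosphate, rose by 1.32 in C57BL/6 (limma, adjusted p = 2.19e-06), and its difference of 0.36 in 129S1/SvImJ did not pass (adjusted p = 0.0834). Cidea, a lipid droplet protein, rose by 2.31 in 129S1/SvImJ (limma, adjusted p = 8.82e-07) and by 1.79 in C57BL/6 (adjusted p = 7.75e-05). Elovl3 rose by 2.74 in C57BL/6 (limma, adjusted p = 0.00085). The gene that fell in 129S1/SvImJ was Retn, which encodes resistin, at 1559 ± 400 with rosiglitazone and 4219 ± 461 on control diet (log2 difference -1.47, limma, adjusted p = 0.00173). Pparg itself fell to 834.5 ± 102 in 129S1/SvImJ with rosiglitazone, against 1166 ± 86.7 on control diet (log2 difference -0.49, limma, adjusted p = 0.00408). In C57BL/6 its difference was 0.03 (-0.18 to 0.24). The median log2 difference of the 7 chosen genes was 1.81 in 129S1/SvImJ and 1.85 in C57BL/6, values that the choice itself sets. The 7 macrophage markers had median differences of -0.54 in 129S1/SvImJ, where Cd68 went the other way at 0.46 (-0.71 to 1.63), and of -0.63 in C57BL/6, but 0 of 7 passed the limma test in either strain, and 5 in 129S1/SvImJ and 4 in C57BL/6 had an unadjusted p under 0.05. Their summed values were 1898 to 3107 with rosiglitazone and 3184 to 4610 on control diet in 129S1/SvImJ, and 1664 to 3946 with rosiglitazone and 2819 to 5788 on control diet in C57BL/6, and their part in the rises was not tested. The 5 mesothelial markers had a median difference of -1.15 in 129S1/SvImJ (summed values of 509 to 1227 with rosiglitazone and 1155 to 1789 on control diet) and of 0.61 in C57BL/6 (996 to 1775 with rosiglitazone and 298 to 2198 on control diet). The 3 erythroid markers had medians of 0.01 in 129S1/SvImJ and -1.16 in C57BL/6. Neither list had a gene that passed the limma test in either strain, and an unadjusted p under 0.05 was seen for 2 mesothelial markers in 129S1/SvImJ and 2 erythroid markers in C57BL/6. Of the 6 lymphocyte markers, 1 rose in C57BL/6, Cd3e, at 6.75 ± 2.06 with rosiglitazone and 1.75 ± 1.5 on control diet (log2 difference 1.58, limma, adjusted p = 0.0484). The part of these lists in the rises was not tested.

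The strain rises stand side by side as follows. The 129S1/SvImJ log2 difference minus that of C57BL/6 was 1.17 ± 0.25 for Ephx2, 1.02 ± 0.49 for Chrna2, 0.32 ± 0.37 for Mbnl3 and 0.29 ± 0.23 for Arxes2 (± SE). It was -1.23 ± 0.34 for Clstn3, -0.53 ± 0.51 for Sptlc3 and -0.08 ± 0.25 for Arxes1. These were not tested, since the choice used both strains.

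On control diet, 3 of the 7 genes did not overlap between the strains, where 17.6% of all genes did not. Ephx2 averaged 830 ± 61.3 in 129S1/SvImJ and 1624 ± 213 in C57BL/6 (SD, n = 4 each). Mbnl3 averaged 13.8 ± 1.89 in 129S1/SvImJ and 29.5 ± 10.8 in C57BL/6. Clstn3 averaged 148 ± 54 in 129S1/SvImJ and 80.8 ± 9.21 in C57BL/6, the opposite order. With rosiglitazone, Clstn3 averaged 233 ± 41.9 in 129S1/SvImJ and 312 ± 66.7 in C57BL/6, so the order of the strain means turned. With rosiglitazone, Mbnl3 averaged 52 ± 15.7 in 129S1/SvImJ and 81.5 ± 14.1 in C57BL/6, and Ephx2 averaged 4398 ± 322 in 129S1/SvImJ and 3943 ± 1291 in C57BL/6.

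The drug-free libraries of the other experiments were not used to choose the genes, and there the strains and depots were tested with limma on log2(value + 1), with p adjusted over all 22869 genes. In eWAT after 12 weeks of low fat diet, 1 of the 7 genes passed the test, Arxes2, where 11.5% of all genes did. In 3 of the 7 genes the strains did not overlap, where 21.1% of all genes did not. Arxes2 stood at 498, 578, 767 and 951 in 129S1/SvImJ eWAT, against 218, 302, 208, 189 and 134 in C57BL/6 eWAT. The strains did not overlap, and the log2 difference was 1.73 ± 0.33 (SE, limma, adjusted p = 0.00383). Arxes1 stood at 74, 61, 73 and 71 in 129S1/SvImJ eWAT, against 53, 71, 43, 29 and 45 in C57BL/6 eWAT. These overlapped, with a log2 difference of 0.58 (95% interval -0.16 to 1.31, limma, adjusted p = 0.372). Whether the strain difference of Arxes2 was larger than that of Arxes1 was not tested.

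Clstn3 stood at 75, 83, 110 and 60 in 129S1/SvImJ eWAT, against 157, 183, 186, 146 and 171 in C57BL/6 eWAT after 12 weeks. The strains did not overlap, and the log2 difference was -1.06 ± 0.35, which did not pass the test (limma, adjusted p = 0.069). Fitted on the 9 eWAT libraries alone it passed, with the same difference and an adjusted p of 0.00488 by limma. The authors' deposited table lists a log2 fold change of 1.22 for Clstn3 there, C57BL/6 over 129S1/SvImJ, with p = 3.06e-12. The lower 129S1/SvImJ level is opposite to the control diet libraries of the drug experiment, where 129S1/SvImJ stood at 94 to 223 and C57BL/6 at 68 to 90. Both are eWAT of mice on low fat diet without drug, and experiment and any difference in age cannot be told apart. All 6 endothelial markers were lower in 129S1/SvImJ eWAT in this comparison (summed values of 1593 to 2243 against 4349 to 4848 in C57BL/6), and their part in the result was not tested.

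Chrna2 stood at 17, 21, 16 and 24 in 129S1/SvImJ eWAT, against 9, 13, 5, 5 and 6 in C57BL/6 eWAT. The strains did not overlap, and the log2 difference of 1.32 (-0.33 to 2.97) did not pass the test (limma, adjusted p = 0.361). On the eWAT libraries alone it passed, with an adjusted p of 0.0163 by limma. On control diet in the drug experiment the Chrna2 means had the opposite order, 9.25 in 129S1/SvImJ and 16.25 in C57BL/6, with overlap. In iWAT, 1 C57BL/6 library lists Chrna2 at the floor. Ephx2 stood at 1623 to 2535 in 129S1/SvImJ eWAT, against 1295 to 1935 in C57BL/6 eWAT, with overlap and a log2 difference of 0.51 (-0.08 to 1.09). Mbnl3 stood at 18 to 38 in 129S1/SvImJ eWAT, against 19 to 30 in C57BL/6 eWAT, a difference of 0.28 (-0.66 to 1.22). Sptlc3 stood at 1 or 2 in all 9 libraries. On control diet, without overlap, 129S1/SvImJ had lower means than C57BL/6 for Ephx2 (830 against 1624) and for Mbnl3 (13.8 against 29.5). As for Clstn3, experiment and any difference in age cannot be told apart there.

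**Figure D2:**
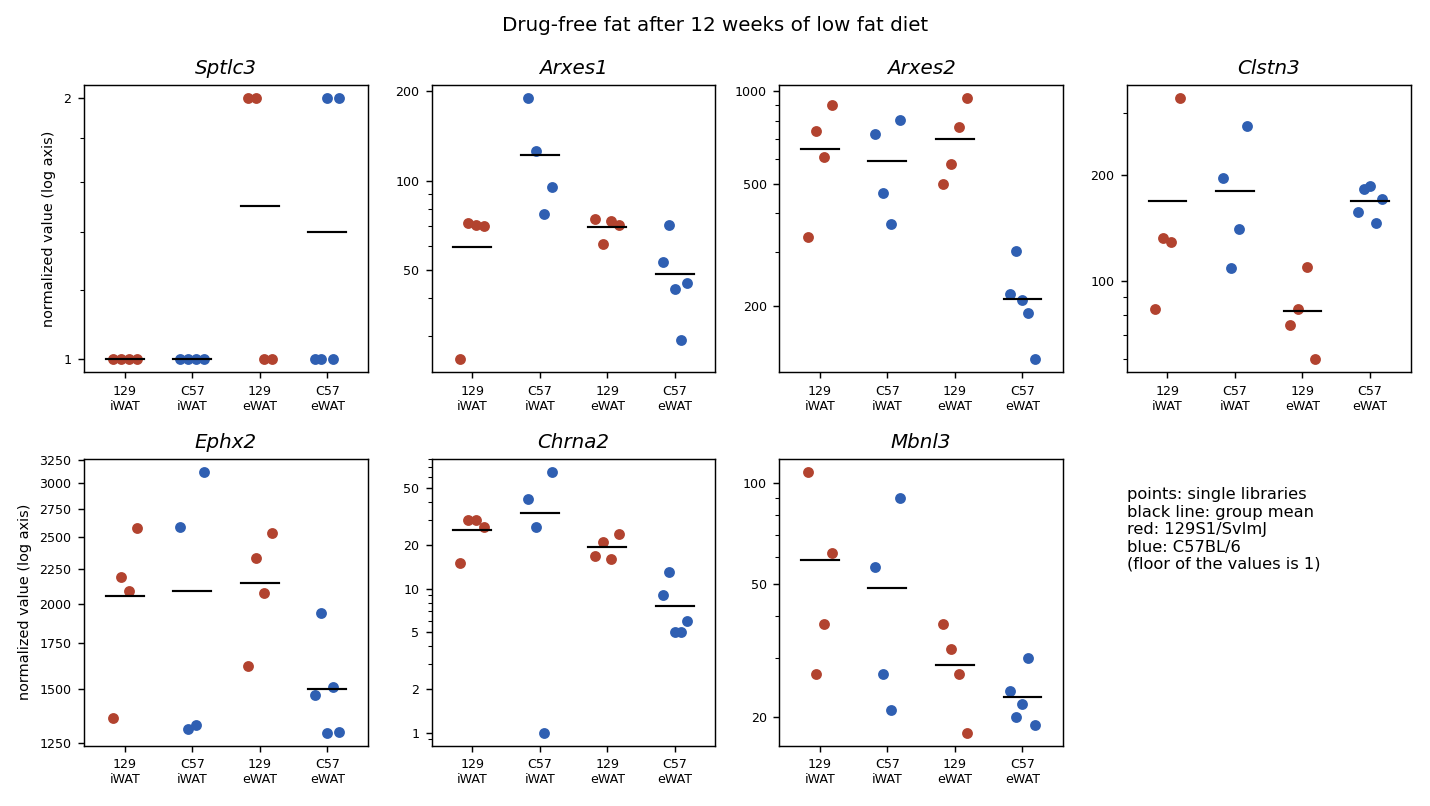
Normalized value (log axis) of each gene after 12 weeks of drug-free low fat diet, 1 point per library, in 129S1/SvImJ iWAT, C57BL/6 iWAT, 129S1/SvImJ eWAT and C57BL/6 eWAT. Black lines are group means. C57BL/6 eWAT is lowest for Arxes2, at 134 to 302, and Sptlc3 is at 1 or 2 throughout.

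In iWAT, 0 of the 7 genes passed the strain test by limma, where 6.43% of all genes did. An unadjusted p under 0.05 was seen for 1 of the 7, where 4498 of all 22869 genes had one. The strains did not overlap in 1 of the 7 genes, where 7.78% of all genes did not. That gene was Arxes1, at 25, 72, 71 and 70 in 129S1/SvImJ iWAT, against 190, 126, 77 and 95 in C57BL/6 iWAT. The strains did not overlap, and the log2 difference was -1.06 ± 0.36 (limma, adjusted p = 0.106). Arxes2 stood at 334, 740, 609 and 903 in 129S1/SvImJ iWAT, against 725, 465, 370 and 807 in C57BL/6 iWAT, a difference of 0.11 (-0.64 to 0.86). Library 1 of 129S1/SvImJ, lowest of its group for both Arxes genes, Clstn3, Ephx2 and Chrna2, was also the library with the highest Cd79b, at 1021.

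Sptlc3 was listed at the floor of 1 in all 8 iWAT libraries. The authors' deposited table lists a log2 fold change of 2.45 for Sptlc3 in iWAT, C57BL/6 over 129S1/SvImJ, with p = 0.0392, while the deposited values show no difference there. Clstn3 stood at 83, 133, 129 and 332 in 129S1/SvImJ iWAT, against 197, 109, 141 and 276 in C57BL/6 iWAT. In each strain the highest Clstn3 value was in library 4. The thermogenic gene Ucp1, named after its values were seen, stood at 2392 in 129S1/SvImJ library 4 and 2108 in C57BL/6 library 4, against 42 to 86 in the other 129S1/SvImJ and 1 to 156 in the other C57BL/6 iWAT libraries. The same libraries were the highest of their strain for Ephx2, at 2578 and 3119, and for Arxes2, at 903 and 807.

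Mbnl3 in iWAT ran with the B cell marker. It stood at 108, 27, 38 and 62 in 129S1/SvImJ iWAT, where Cd79b stood at 1021, 7, 10 and 289. In C57BL/6 iWAT it stood at 56, 27, 21 and 90, where Cd79b stood at 22, 19, 1 and 356. The 3 libraries with Cd79b over 100 held 3 of the 3 highest Mbnl3 values of the 8. Over all 6 lymphocyte markers the summed values ran between 24 and 3250 in 129S1/SvImJ iWAT and between 6 and 1558 in C57BL/6 iWAT, and their part in the Mbnl3 level was not tested.

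The depot contrast asks whether these genes differ between subcutaneous and visceral fat without the drug. It compares 2 tables whose common normalization was inferred from their shared highest value, and the C57BL/6 iWAT libraries have the coarser scale. With both tables quantile normalized together, the same of the 7 genes passed in each strain. In 129S1/SvImJ, 0 of the 7 genes passed the test by limma, where 1.72% of all genes did. An unadjusted p under 0.05 was seen for 1 of the 7, where 3036 of all 22869 genes had one. That gene was Clstn3, with a log2 difference of 0.87 (0.09 to 1.66, limma, adjusted p = 0.321). In C57BL/6, 2 of the 7 genes passed, Arxes1 and Arxes2, where 13.1% of all genes did. The same 2 of 7 did not overlap between depots, where 15.7% of all genes did not. Arxes2 averaged 592 ± 208 in C57BL/6 iWAT and 210 ± 60.7 in C57BL/6 eWAT (SD, n = 4 and 5), without overlap, a log2 difference of 1.47 ± 0.33 (limma, adjusted p = 0.0101). Arxes1 averaged 122 ± 49.7 in C57BL/6 iWAT and 48.2 ± 15.4 in C57BL/6 eWAT, without overlap, a difference of 1.30 ± 0.34 (adjusted p = 0.0233). The call of Arxes1 did not hold when any of 4 single libraries was left out (C57BL/6 eWAT libraries 3 and 4 and iWAT libraries 1 and 2), with differences of 1.06 to 1.27 and adjusted p of 0.0511 to 0.0672 by limma.

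In 129S1/SvImJ neither Arxes gene passed the depot test, with differences of -0.16 (-0.90 to 0.59) for Arxes2 and -0.34 (-1.11 to 0.44) for Arxes1. The test of the difference between strains in the depot effect gave -1.62 ± 0.48 for Arxes2 (limma, adjusted p = 0.0897) and -1.63 ± 0.50 for Arxes1 (adjusted p = 0.0983), and 0 of the 7 genes passed it, where 3.14% of all genes did. Both Arxes genes had an unadjusted p under 0.05 there, where 3677 of all 22869 genes had one. Chrna2 in C57BL/6 stood at 42, 27, 1 and 65 in iWAT, against 5 to 13 in eWAT, a difference of 1.30 (-0.35 to 2.95, limma, adjusted p = 0.33). Without C57BL/6 iWAT library 3, which lists it at 1, the difference was 2.41 with an adjusted p of 0.000838, and the strain by depot difference of Chrna2 was -2.07 with an adjusted p of 0.036 by limma. For Clstn3, Ephx2, Mbnl3 and Sptlc3 the C57BL/6 depot differences were 0.02, 0.38, 0.83 and -0.23, and none passed the test.

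**Figure D3:**
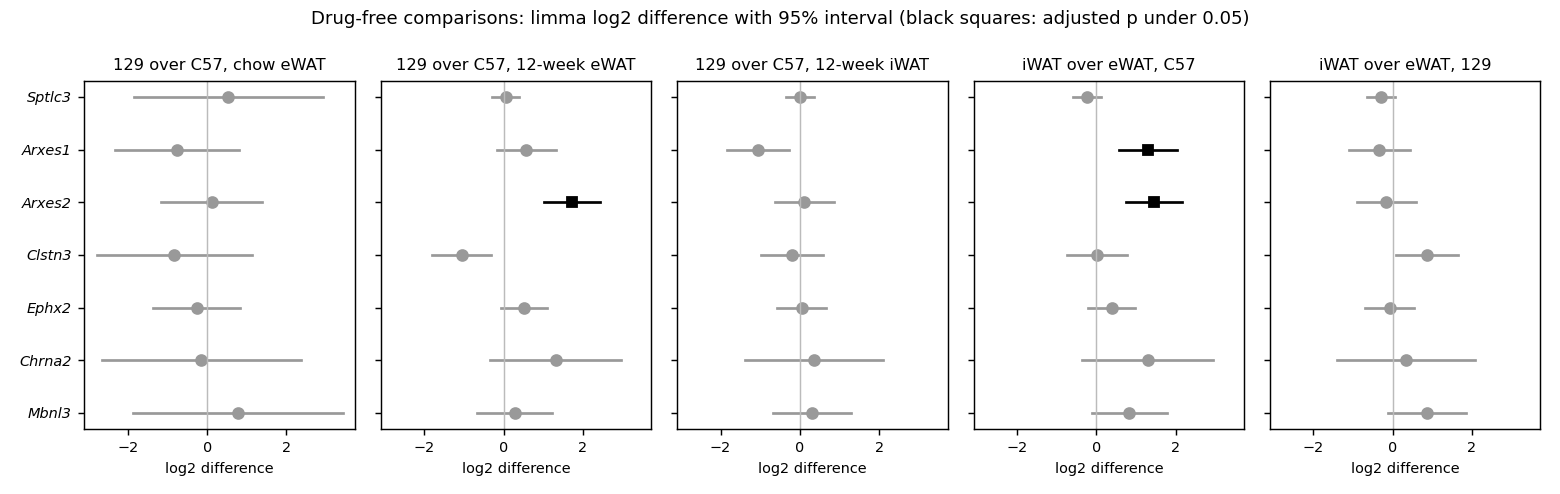
Log2 difference (x axis) of each gene in 5 drug-free comparisons, with 95% intervals from limma, for 129S1/SvImJ over C57BL/6 in 3 sets of libraries and iWAT over eWAT in each strain. Black squares passed the adjusted test: Arxes2 between strains in 12-week eWAT (1.73), and Arxes1 (1.30) and Arxes2 (1.47) between depots in C57BL/6.

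The ratio of the Arxes2 to the Arxes1 value within a library would be left as it is by a common scaling of the library. Libraries of an experiment share their highest value, so the authors' normalization may not be such a scaling and may have changed the ratio. The ratio ran higher in 129S1/SvImJ than in C57BL/6 in each of the 5 pairs of groups by median. After 12 weeks its median was 9.99 in 129S1/SvImJ eWAT (6.73 to 13.4) and 4.25 in C57BL/6 eWAT (2.98 to 6.52), without overlap. In iWAT it was 11.6 in 129S1/SvImJ (8.58 to 13.4) and 4.31 in C57BL/6 (3.69 to 8.49), again without overlap. On chow it was 13 in 129S1/SvImJ (12.1 to 24.4) and 8.40 in C57BL/6 (5.3 to 10.5), also without overlap. With rosiglitazone it was 7.83 in 129S1/SvImJ (7.03 to 9.82), against 10.4 on control diet (7.8 to 11.6). In C57BL/6 it was 4.99 with rosiglitazone (4.77 to 5.77), against 8.14 on control diet (6.93 to 9.61). The drug and control libraries of C57BL/6 did not overlap in this ratio, and those of 129S1/SvImJ did. Since the placing of reads from the shared stretch is not stated, the ratio is a description with no test.

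**Figure D4:**
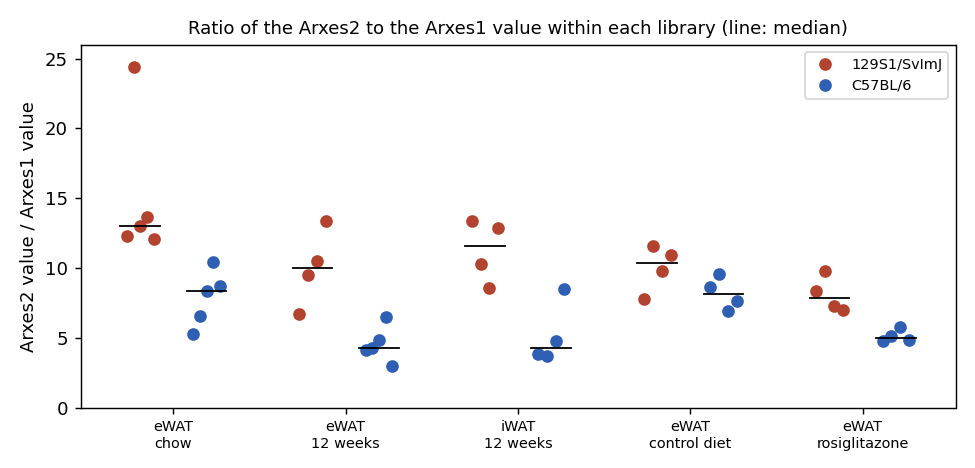
Ratio of the Arxes2 to the Arxes1 normalized value (y axis, linear) within each library, by strain, for 5 sets of libraries, with lines at the medians. The 129S1/SvImJ median is above the C57BL/6 median in every set, 9.99 against 4.25 in 12-week eWAT.

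On chow, 0 of the 7 genes passed the strain test by limma, where 4.99% of all genes did. An unadjusted p under 0.05 was seen for 0 of the 7, where 3924 of all 22869 genes had one. Within each strain the libraries stood far apart. Chrna2 stood at 35, 291, 22, 23 and 23 in 129S1/SvImJ chow libraries, where Epcam stood at 447, 1189, 6, 5 and 6. In C57BL/6 chow libraries Chrna2 stood at 11, 200, 18, 23 and 208, where Epcam stood at 5, 461, 1, 5 and 425. The 4 libraries with Epcam over 100 held the 4 highest Chrna2 values of the 10, in both strains. Their part in the Chrna2 level was not tested.

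Sptlc3 followed the same libraries. It stood at 39, 14, 1, 1 and 2 in 129S1/SvImJ chow libraries, against 1, 12, 1, 1 and 10 in C57BL/6 chow libraries. The 4 libraries with Epcam over 100 were the only chow libraries above 2. Mbnl3 stood at 26, 2179, 39, 32 and 47 in 129S1/SvImJ, against 56, 38, 48, 41 and 55 in C57BL/6. The 129S1/SvImJ library 2 thus lay far from every other library, and it is the library with Lcn5 at 58238. The authors' deposited table lists a log2 fold change of -3.15 for Mbnl3 on chow, C57BL/6 over 129S1/SvImJ, with p = 0.00017. Without that library the log2 difference, 129S1/SvImJ over C57BL/6, was -0.41 (limma, adjusted p = 0.257), and with it 0.77 (-1.88 to 3.42, adjusted p = 0.829).

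Arxes2 and Clstn3 ran the other way in these libraries. Arxes2 stood at 332, 122, 805, 807 and 919 in 129S1/SvImJ chow libraries, against 424, 336, 638, 512 and 357 in C57BL/6 chow libraries. For both genes the 4 lowest values of the 10 were in the 4 libraries with Epcam over 100. Arxes1 stood at 27, 5, 62, 59 and 76 in 129S1/SvImJ, against 80, 51, 76, 49 and 41 in C57BL/6, and Clstn3 at 53, 5, 113, 118 and 130 in 129S1/SvImJ, against 121, 95, 130, 135 and 48 in C57BL/6. Ephx2 stood at 1192, 404, 2090, 2280 and 2234 in 129S1/SvImJ, against 1536, 1623, 2303, 1739 and 1278 in C57BL/6. Without 129S1/SvImJ libraries 1 and 2, Arxes2 passed the strain test, with a log2 difference of 0.93 and an adjusted p of 0.0469 by limma, and with all 10 libraries it was 0.11 (-1.18 to 1.39, adjusted p = 1). Without all 4 libraries with Epcam over 100 it was 0.70 and did not pass (limma, adjusted p = 0.0796).

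**Figure D5:**
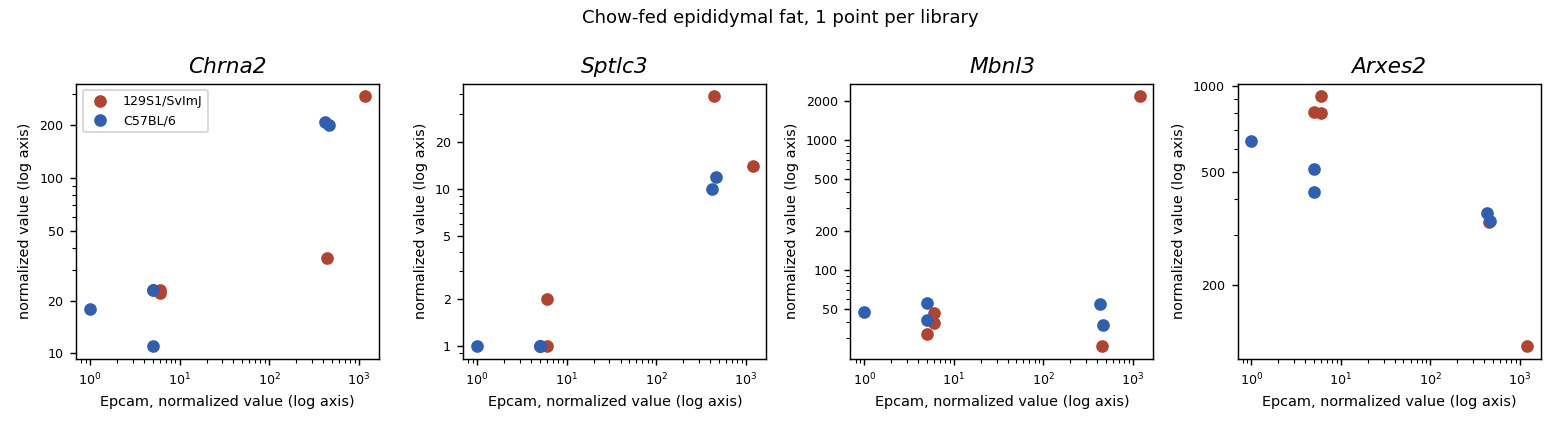
Normalized values of Chrna2, Sptlc3, Mbnl3 and Arxes2 (y axes, log) against the epithelial marker Epcam (x axes, log) in the 10 chow libraries, by strain. The 4 libraries with Epcam at 425 to 1189 hold the highest Chrna2 (35 to 291) and Sptlc3 (10 to 39) values and the lowest Arxes2 values (122 to 357).

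The order of levels across the 12-week groups assumes that the eWAT and iWAT tables share a normalization, which was inferred from their shared highest value and is stated by no source. For Arxes2, the mean was 698 ± 203 in 129S1/SvImJ eWAT, 646 ± 241 in 129S1/SvImJ iWAT, 592 ± 208 in C57BL/6 iWAT and 210 ± 60.7 in C57BL/6 eWAT, and the first 3 did not differ beyond their spread. For Ephx2 the order of the same groups was 2141 ± 394 in 129S1/SvImJ eWAT, 2088 ± 912 in C57BL/6 iWAT, 2053 ± 508 in 129S1/SvImJ iWAT and 1501 ± 262 in C57BL/6 eWAT, with overlap between all neighbours. For Clstn3 the means were 181 ± 73.2 in C57BL/6 iWAT, 169 ± 111 in 129S1/SvImJ iWAT, 169 ± 17 in C57BL/6 eWAT and 82 ± 21 in 129S1/SvImJ eWAT, and of these groups only those of eWAT did not overlap with each other. For Chrna2 they were 33.8 ± 26.9 in C57BL/6 iWAT, 25.5 ± 7.14 in 129S1/SvImJ iWAT, 19.5 ± 3.70 in 129S1/SvImJ eWAT and 7.6 ± 3.43 in C57BL/6 eWAT. The drug experiment was normalized apart from the 12-week tables, so its levels are not placed in these orders.

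Finally, the genes were compared by how they varied between libraries of the same group, as Pearson's r of log2(value + 1) after the group means were removed, over 42 libraries, leaving out 129S1/SvImJ chow library 2. The closest pair among the 7 was Arxes2 and Ephx2, at 0.851, and 0.827 without the other 3 libraries with Epcam over 100. Arxes1 and Arxes2 stood at 0.714, Clstn3 and Ephx2 at 0.677, and Clstn3 and Arxes2 at 0.624. Pairs with Sptlc3 lay between -0.525 (Arxes2) and 0.423 (Chrna2) over the 42 libraries, and at -0.085 and -0.0151 over the 39. Pairs with Mbnl3 lay between -0.152 and 0.172 over the 42. Ephx2 and Chrna2, the neighbours on chromosome 14, stood at 0.306 over the 42 libraries and at 0.683 over the 39. Among 11954 genes with a mean of at least 20, the closest to Ephx2 were Slc27a1 (0.886), a fatty acid transporter, Retsat (0.871), retinol saturase, and Crat (0.87), carnitine acetyltransferase. The closest to Arxes2 were Ephx2, Dhrs7b (0.84) and Mgst1 (0.839), and to Clstn3 Slc36a2 (0.858), Dlat (0.841) and Dgat1 (0.823). The closest to Arxes1 were Pex13 (0.792), Eif4ebp1 (0.778) and Inca1 (0.771), and to Chrna2 Kcnk5 (0.852), 4930455F23Rik (0.843) and Hsp90aa1 (0.831). Sptlc3 ran closest to Abhd2 (0.907), Tpd52 (0.883) and the epithelial cadherin Cdh1 (0.879), and Mbnl3 to Cbfb (0.823), Ly9 (0.817) and the B cell gene Cd22 (0.811). All libraries of an experiment share its normalization, and the libraries with high Epcam or Cd79b are among the 42. So is at least 1 129S1/SvImJ chow library with high Crisp1.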

How the data were processed

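RNA-seq values of 43 libraries in 10 groups came from 5 tables, whose column names were matched to the sample labels. HOMER and mm9 appear in the submitters' processing notes; counting options and normalization steps were not found there. Each value is a score per transcript, normalized by the authors and deposited as a whole number with a floor of 1. These are not raw counts, and depth is unknown. The log2 fold changes and p-values in the tables are the authors' own, deposited without a statement of how they were made or adjusted. Control libraries of the drug experiment hold identical values in 2 tables and were used once. The 12-week eWAT and iWAT tables share their highest value and were fitted together, on the inference, stated by no source, that they were normalized jointly.

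Per symbol, the highest of 28644 transcript rows by total was used. limma 3.58.1 (trend, robust; R 4.3.3) was run on log2(value + 1), with 16 libraries in the drug fit, 17 in the 12-week fit and 10 in the chow fit. Tests were two-sided, and calls needed a Benjamini-Hochberg adjusted p under 0.05 over all genes. Since the values are normalized, the limma branch of the plan applied. SE of drug differences come from the spread within their groups. The code was tested on simulated data. Lists were summarised by counts, with at most 4 called genes named per list and direction, beside fixed partner genes. The members and lists were chosen with earlier results of these data known. Alternatives were a constant of 10, a filter on means under 5, summed transcript rows, a replicate block, array weights, fits by depot, joint quantile normalization and leaving out libraries. Sequences come from RefSeq on GRCm38.p6, and no coordinate of the tables was used.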

Additional observations from a re-analysis of the deposited data

Results flagged for a closer look

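Of 68 groups of 4 or 5 libraries, 1 per gene and group, 7 held a library whose gap to the next was large for the group's range by Dixon's test, and chance flags about 1 in 20 groups. In 129S1/SvImJ chow library 2, Mbnl3 stood at 2179, Chrna2 at 291 and Clstn3 at 5, each apart from the other 4 libraries. That library also held Epcam at 1189 and Lcn5 at 58238, and their part in these values was not tested. In 129S1/SvImJ iWAT library 1, Arxes1 stood at 25 against 70 to 72 in the others, and Chrna2 at 15 against 27 to 30. That library held Cd79b at 1021, and its part was not tested. On control diet in C57BL/6, Ephx2 stood at 1941 in library 1 against 1491 to 1557 in the others, and Sptlc3 at 1 in library 2 against 4 in each of the others, at the floor of the values.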

How the results depend on the processing

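The rises with rosiglitazone kept their direction for all 7 genes in both strains under each alternative run. The genes were chosen for these rises in the same libraries, so nothing is read from the kept direction. With 10 added in place of 1, the median rise of the 7 genes was 1.58 in 129S1/SvImJ and 1.39 in C57BL/6. Leaving out single libraries gave 788 to 1158 genes called in 129S1/SvImJ and 275 to 741 in C57BL/6. The replicate numbers share only a number, and with a replicate block the genes called were 252 on chow, 945 between strains in iWAT, 256 between depots in 129S1/SvImJ and 220 for strain by depot. Under the replicate block 1 of the 7 genes passed between depots in C57BL/6, Arxes1 having an adjusted p of 0.0887 by limma. In no set of pairs did all same-numbered libraries correlate above 0.1. On chow, array weights called 3690 genes, leaving out 129S1/SvImJ libraries 1 and 2 called 2597 with 1 of the 7 genes, and leaving out the 4 libraries with Epcam over 100, chosen after seeing the data, called 2469. In 12-week eWAT, array weights called 5189 genes and 4 of the 7, the eWAT libraries alone 4973 and 3 of the 7, and a filter on means under 5 called 2 of the 7. In iWAT, that filter called 1 of the 7 (Arxes1, adjusted p = 0.0477 by limma), and the iWAT libraries alone called 387 genes. For strain by depot that filter called 2 of the 7 (Arxes1, adjusted p = 0.0468, and Arxes2, 0.0345, by limma), where fewer genes were tested. The share of all genes called is not given here for that filter. The same holds for the replicate block between depots in C57BL/6, so nothing is read from those counts of the 7. Leaving out single libraries gave 655 to 2564 genes called on chow, 231 to 435 between depots in 129S1/SvImJ, and 424 to 1122 with 0 to 1 of the 7 for strain by depot. Between depots in C57BL/6 it gave 2226 to 3130 genes called, with 1 to 3 of the 7.

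Differences that had not passed the test changed sign in some alternatives, and the cause was not tested. On chow, array weights gave -0.21 for Sptlc3, 0.26 for Ephx2 and -0.26 for Mbnl3. Without 129S1/SvImJ libraries 1 and 2 the values were -0.84 for Sptlc3, 0.18 for Arxes1, 0.27 for Clstn3, 0.40 for Ephx2 and -0.27 for Mbnl3. Without the 4 Epcam libraries they were 0.26 for Ephx2, 0.43 for Chrna2 and -0.30 for Mbnl3. Leaving out single chow libraries gave -0.16 to 0.95 for Sptlc3, -0.13 to 0.60 for Arxes2, -0.44 to 0.18 for Ephx2, -0.84 to 0.39 for Chrna2 and -0.41 to 1.17 for Mbnl3. In 12-week eWAT it gave -0.039 to 0.16 for Sptlc3. In iWAT it gave -0.094 to 0.395 for Arxes2, -0.59 to 0.071 for Clstn3, -0.14 to 0.28 for Ephx2, -0.75 to 0.93 for Chrna2 and -0.045 to 0.68 for Mbnl3, while a constant of 10 gave -0.025 for Chrna2 and array weights -0.17 for Mbnl3. Between depots in 129S1/SvImJ it gave -0.47 to 0.029 for Arxes1, -0.35 to 0.13 for Arxes2 and -0.20 to 0.11 for Ephx2, and in C57BL/6 -0.21 to 0.23 for Clstn3. Without the 3 iWAT libraries with Cd79b over 100, chosen after seeing the data, the depot differences were 0.039 for Arxes1 and 0.017 for Ephx2 in 129S1/SvImJ and -0.21 for Clstn3 in C57BL/6. For strain by depot, single libraries gave -0.32 to 0.40 for Mbnl3 and -0.16 to 0.039 for Sptlc3, array weights -0.35 for Mbnl3, and leaving out the Cd79b libraries -0.27 for Mbnl3.

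Values near the floor of 1, above all Sptlc3 without the drug, limit what a difference can show, and the unknown depth gives no error for them. Chrna2 is listed at 1 in 1 of the coarse C57BL/6 iWAT libraries.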

Other observations

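Ppara, the relative of Pparg that drives fatty acid oxidation, rose by 1.46 on the log2 scale in 129S1/SvImJ with rosiglitazone (limma, adjusted p = 3.9e-05), and the coactivator gene Ppargc1b rose by 0.86 in 129S1/SvImJ (adjusted p = 0.0409) and by 0.99 in C57BL/6 (adjusted p = 0.0333). Spcs3, parent gene of the Arxes pair, was higher in 129S1/SvImJ after 12 weeks in eWAT, by 0.72 (limma, adjusted p = 0.00509), and in iWAT, by 0.56 (adjusted p = 0.0427). Clstn1 was lower in iWAT than in eWAT, by -0.46 in 129S1/SvImJ (limma, adjusted p = 0.0247) and by -0.97 in C57BL/6 (adjusted p = 1.36e-05), while Clstn3 did not pass that test in either strain.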
